A study of Drosophila melanogaster with 2 samples.

Results

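The 73 protein-coding genes of the fly annotation whose symbols begin with mRpL or mRpS followed by a number encode proteins of the mitochondrial ribosome, and they were followed here as sites of the chromatin protein CG10462. They were found by symbol among 13945 protein-coding genes on chromosome arms 2L, 2R, 3L, 3R, 4 and X (Ensembl release 115, the dm6 build). By symbol, 47 are mRpL genes, named for the large subunit, and 26 are mRpS genes, named for the small subunit. The symbol does not always give the subunit, since the human orthologues of mRpS30 and mRpS18A belong to the large one, and counts by symbol below are not subunit counts. A gene was called occupied if the summit of a peak in the authors' combined list lay within 500 bp of one of its annotated transcript starts.

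Mitochondrial ribosomes make the few proteins that the mitochondrial genome encodes, which are core subunits of the respiratory chain and ATP synthase. The ribosomal RNAs come from that genome, whereas every protein of the mitochondrial ribosome is encoded in the nucleus, made in the cytosol and imported. Some of these proteins have counterparts in the bacterial ribosome and others are found only in mitochondria, so assembling a complete particle depends on many scattered nuclear promoters.

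CG10462 was mapped by chromatin immunoprecipitation with sequencing (ChIP-seq), which enriches the DNA bound by a chosen protein. Both samples were whole Drosophila melanogaster embryos aged 0 to 24 hours, males and females pooled, from a stable line of transgenic flies in which CG10462 carries green fluorescent protein (GFP) at its C terminus, and the tag was the target of the antibody per the sample descriptions, although the antibody field of the labels reads CG10462. The strain is labelled CG10462-GFP, and the promoter and cells that express the fusion are not given in the labels. The 2 samples are biological replicates, numbered 2 and 3, of 1 group, so the data describe positions and hold no contrast between conditions, and a whole-embryo sample cannot tell many cells with weak occupancy from few cells with strong occupancy.

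The combined list is the dm6 optimal list of 2993 peaks, which the authors derived by the irreproducible discovery rate, a measure of rank agreement. Not every peak in it has an entry in the separate list of each replicate. The longer lists, called relaxed because they also hold background, have 30000 entries each for replicate 2, replicate 3 and the pooled reads. The deposited signal of a peak is the authors' value, its scaling is not stated, and it was used to rank peaks within a list, with rank 1 the strongest. No read counts are given, so depth is unknown. Where a gene is transcribed away from another from nearby starts on opposite strands, the pair is called divergent, and 1 summit can then count for both genes.

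The following 6 sequences show the DNA at summits of occupied members that lie between divergent starts. They are not the 6 strongest members. At mRpL41 (rank 15) the summit is not between divergent starts, at mRpL23 (rank 48) it is in an intron, and neither is printed. All 6 sequences were read from the RefSeq copy of the Release 6 assembly (the dm6 build). They run 5′ to 3′ on the strand of the ribosomal protein gene and carry the 21 bases centred on the summit in capitals. The windows at mRpS10, mRpL24 and mRpS2 run from 10 bases inside the first exon of the divergent neighbour to 10 bases inside that of the member, and the windows at mRpS23, mRpS6 and mRpL20 are the 200 bases around the summit.
mRpS10 and Art3, chr3R:15229399-15229674, plus strand: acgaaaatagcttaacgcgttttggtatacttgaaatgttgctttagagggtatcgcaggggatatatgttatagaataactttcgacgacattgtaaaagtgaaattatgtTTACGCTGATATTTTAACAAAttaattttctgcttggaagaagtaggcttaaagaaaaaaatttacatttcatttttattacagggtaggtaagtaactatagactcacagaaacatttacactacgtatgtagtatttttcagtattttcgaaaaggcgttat
mRpS23 and CenG1A, chr2L:13835350-13835549, minus strand: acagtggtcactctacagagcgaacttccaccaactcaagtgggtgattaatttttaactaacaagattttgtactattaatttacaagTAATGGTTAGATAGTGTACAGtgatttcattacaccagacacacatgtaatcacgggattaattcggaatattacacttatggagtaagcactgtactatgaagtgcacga
mRpL24 and betaggt-I, chr2L:4945352-4945588, minus strand: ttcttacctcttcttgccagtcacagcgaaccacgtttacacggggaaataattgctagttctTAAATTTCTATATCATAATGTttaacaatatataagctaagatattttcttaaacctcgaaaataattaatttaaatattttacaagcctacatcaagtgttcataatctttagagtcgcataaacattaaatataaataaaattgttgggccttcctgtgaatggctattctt
mRpS2 and Mon1, chr2L:4850410-4850650, minus strand: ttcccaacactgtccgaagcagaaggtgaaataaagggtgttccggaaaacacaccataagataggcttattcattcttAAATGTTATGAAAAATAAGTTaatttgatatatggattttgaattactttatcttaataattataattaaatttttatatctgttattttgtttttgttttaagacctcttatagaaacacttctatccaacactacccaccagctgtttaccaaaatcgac
mRpS6 and Cip4, chr3L:4364329-4364528, plus strand: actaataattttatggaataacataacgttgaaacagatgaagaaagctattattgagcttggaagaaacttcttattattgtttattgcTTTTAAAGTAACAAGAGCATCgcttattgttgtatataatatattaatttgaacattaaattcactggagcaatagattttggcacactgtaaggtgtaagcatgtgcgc
mRpL20 and Icmt, chr3L:13018004-13018203, minus strand: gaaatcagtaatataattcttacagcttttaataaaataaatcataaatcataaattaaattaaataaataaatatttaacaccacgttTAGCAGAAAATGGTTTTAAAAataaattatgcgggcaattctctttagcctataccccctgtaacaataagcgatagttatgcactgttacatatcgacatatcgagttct

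All 3 complete windows were poor in G and C, with 30.4% at mRpS10, 29.5% at mRpL24 and 29.5% at mRpS2. In the other 3, of 200 bp each, the share was 36.0% at mRpS23, 29.5% at mRpS6 and 26.5% at mRpL20, beside a median of 34% over all 1603 promoter summits. The window at mRpS2 holds the letters CAGCTG close to the start of the gene and away from the capitals.

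Of the 73 genes 19 (26.0%, 95% Wilson interval 17.3% to 37.1%) were occupied, beside 14.7% of all protein-coding genes. By symbol, mRpS genes were occupied in 9 of 26 cases (34.6%) and mRpL genes in 10 of 47 (21.3%), a difference that was not tested. Members were also divided by hand, from general knowledge of the human mitochondrial ribosome's nomenclature and not from any deposited file, into proteins with a counterpart in the bacterial ribosome and proteins specific to mitochondria. Of the former 13 of 44 (29.5%) were occupied and of the latter 6 of 29 (20.7%), also without a test. Among the members, 4 lay at the 100 strongest peaks (5.48% of the 73, beside 0.681% of protein-coding genes), a limit of 100 that was chosen after the ranks were seen.

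The strongest of the 4 was mRpS10, whose bacterial counterpart sits in the head of the small subunit. Its summit, at position 15229521 of 3R, ranked 8 in the combined list with a signal of 709. In replicate 2 the rank was 8 (signal 423) and in replicate 3 it was 11 (signal 286). The summit lay 144 bp upstream of the mRpS10 start and 113 bp upstream of Art3, an arginine methyltransferase gene transcribed the other way from a start 257 bp distant. Both replicates therefore placed it among their strongest entries, and it stood between the 2 starts.

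At mRpL41, a large-subunit gene specific to mitochondria, the summit at 15217756 of 2R ranked 15 with a signal of 631. Replicate 2 gave rank 14 (signal 368) and replicate 3 rank 16 (signal 261). It was 139 bp upstream of the mRpL41 start, with no divergent start within 500 bp of it, although CG8079 starts 762 bp from mRpL41 on the opposite strand and a start of the noncoding gene lncRNA:CR44463 lay 439 bp before the summit. Of the 4 strongest members it was the one that did not share its summit with a divergent gene.

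The mRpS23 gene encodes a small-subunit protein specific to mitochondria. Its summit at 13835450 of 2L ranked 21 with a signal of 576, at rank 29 (310) in replicate 2 and 15 (262) in replicate 3. Here the summit was far nearer the neighbour, 114 bp upstream of CenG1A, the gene of an Arf GTPase-activating protein, and 378 bp upstream of mRpS23, the largest distance among the 19. The peak at mRpL23, whose bacterial counterpart stands at the exit of the peptide tunnel, had its summit at 2373587 of 3L and ranked 48 (signal 427). Its rank was 71 (214) in replicate 2 and 27 (213) in replicate 3. The summit lay 86 bp upstream of 1 mRpL23 start and 141 bp upstream of CG9004, but 2 other mRpL23 starts were 91 bp and 117 bp on its other side, so it fell within an intron of the longer transcripts.

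**Figure D1:**
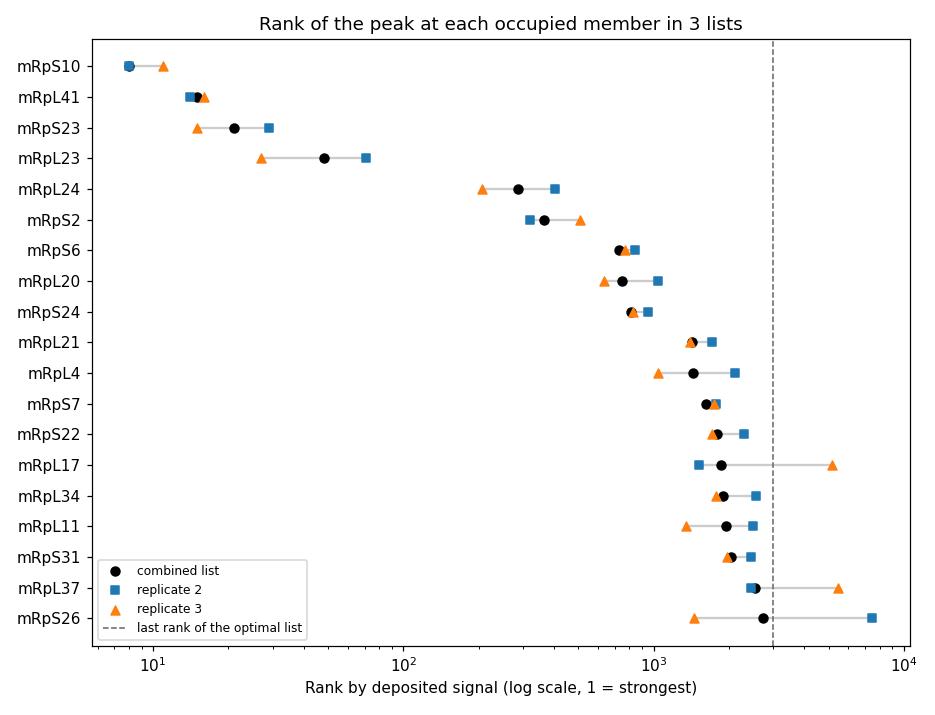
Rank of the peak at each of the 19 occupied members by deposited signal (x axis, log scale, 1 = strongest) in the combined list (circles), replicate 2 (squares) and replicate 3 (triangles); the dashed line is rank 2993, the end of the optimal list. The 4 strongest members, mRpS10, mRpL41, mRpS23 and mRpL23, stand apart at ranks 8 to 48, and 3 markers lie beyond the line, for mRpL17 and mRpL37 in replicate 3 and mRpS26 in replicate 2.

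Among the other mRpS genes, the mRpS2 summit (4850561 of 2L) ranked 365 with a signal of 189. Its rank was 322 (signal 122) in replicate 2 and 509 (signal 66.6) in replicate 3. It stood 142 bp upstream of mRpS2 and 80 bp upstream of Mon1, which encodes a subunit of the exchange factor for Rab7. The gene mRpS6, whose bacterial counterpart binds the platform of the small subunit, had rank 729 (signal 138; summit at 4364429 of 3L). In replicate 2 its rank was 845 (80.3) and in replicate 3 it was 765 (54.5). The summit was 121 bp upstream of mRpS6 and 327 bp upstream of Cip4, the gene of an F-BAR membrane protein.

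Rank 815 (signal 131) belonged to mRpS24, with the summit at 24163597 of 3R, only 52 bp upstream of its start and the closest of all 19. Replicate 2 placed it at 951 (75.7) and replicate 3 at 830 (52.0), and the neighbour 369 bp on the other side was Apc2, a gene of the beta-catenin destruction complex. At mRpS7, whose bacterial counterpart organises the head of the small subunit, the rank was 1615 (91.3), with 1777 (54.5) in replicate 2 and 1748 (34.2) in replicate 3. That summit (10386459 of 2L) was nearly midway between the starts, 203 bp upstream of mRpS7 and 197 bp upstream of Cdk1, the mitotic cyclin-dependent kinase. These 4 mRpS genes had counterparts in bacteria and stood among the strongest 2993 entries of both replicates.

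The 3 remaining occupied mRpS genes, mRpS22, mRpS31 and mRpS26, are specific to mitochondria and stood lower in the list. The mRpS22 summit (27916732 of 3R) ranked 1784 (85.8), with 2303 (46.8) in replicate 2 and 1706 (34.7) in replicate 3, and lay 176 bp upstream of mRpS22 and 216 bp upstream of CG5003. For mRpS31 the rank was 2036 (78.8), with 2440 (45.1) in replicate 2 and 1962 (31.9) in replicate 3, and the summit (16005114 of 3L) was 79 bp upstream of mRpS31 and 378 bp upstream of hzg. The weakest of the 19 was mRpS26 at rank 2733 (65.9; 18106356 of 3L), 223 bp upstream of its start and 207 bp upstream of CG13698. Its entries differed most between the replicates, at 7490 (22.8) in replicate 2 and 1449 (38.1) in replicate 3.

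The mRpL genes began, after the strongest peaks, with mRpL24, whose bacterial counterpart starts the assembly of the large subunit. Its summit (4945515 of 2L) ranked 286 with a signal of 214, at 403 (112) in replicate 2 and 206 (101) in replicate 3. It was 154 bp upstream of mRpL24 and 64 bp upstream of betaggt-I, which encodes the beta subunit of the type I enzyme that adds geranylgeranyl groups to proteins. At mRpL20, an early assembly protein in bacteria, the rank was 750 (135; summit at 13018104 of 3L), with 1038 (72.5) in replicate 2 and 634 (60.2) in replicate 3. That summit was 237 bp upstream of mRpL20 and 162 bp upstream of Icmt, the methyltransferase of prenylated proteins, so in both cases the neighbour's start was the nearer.

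Next came mRpL21 at rank 1419 (98.4), with 1715 (55.5) in replicate 2 and 1393 (38.9) in replicate 3. Its summit (19255255 of 3L) was 194 bp upstream of mRpL21 and 85 bp upstream of rept, which encodes the AAA ATPase reptin. The mRpL4 peak ranked 1443 (97.5), with 2106 (49.3) in replicate 2 and 1045 (45.8) in replicate 3, and its summit (16329258 of 2L) was 126 bp upstream of the start. In bacteria the L4 protein lines the peptide tunnel. No divergent start lay within 500 bp of that summit, and the nearest divergent gene, CG4440, starts 793 bp from mRpL4. Thus mRpL4 and mRpL41 were the 2 members whose summit was not shared with a divergent gene. Only at mRpL4 was no start of any other gene within 500 bp of the summit.

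The mRpL17 peak, at rank 1859 (83.6), was unequal between replicates, at 1514 (59.5) in replicate 2 and 5176 (18.1) in replicate 3. Its summit (264472 of 3L) was 307 bp upstream of mRpL17 and 92 bp upstream of Tudor-SN, a nuclease-domain RNA-binding protein gene. For mRpL34 the rank was 1897 (82.3), with 2562 (43.6) in replicate 2 and 1774 (34) in replicate 3, at 16098727 of 2R, 221 bp from mRpL34 and 163 bp from Dg, the dystroglycan gene. The summits at both genes were thus closer to the neighbour.

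The bacterial counterpart of mRpL11 forms the base of the stalk where translation factors bind. Its summit (14511625 of 3R) ranked 1938 (81.0), with 2485 (44.6) in replicate 2 and 1347 (39.5) in replicate 3. It lay 213 bp upstream of mRpL11 and 165 bp upstream of a start of HtrA2, the gene of a mitochondrial serine protease, and within an untranslated exon of longer HtrA2 transcripts, whose start was 87 bp on the other side. The last of the mRpL genes, mRpL37, is specific to mitochondria and ranked 2548 (68.6; 10784176 of 3R), with 2459 (44.9) in replicate 2 and 5465 (17.6) in replicate 3. Its summit was 84 bp upstream of the mRpL37 start.

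Across the 19, the combined rank ran from 8 to 2733 with a median of 1419, beside 1357 for all 1603 promoter summits. Every one of the 19 had an overlapping entry in both replicate lists, as had 1588 of the 1603 promoter summits. The combined list was itself derived from rank agreement, so these counts are no independent check. At the 19 the summit was shifted by a median of 11 bp in replicate 2 (at most 56 bp) and 21 bp in replicate 3 (at most 108 bp). Among the strongest 2993 entries, 18 were present in replicate 2, 17 in replicate 3 and 16 in both, whereas 75.2% of all promoter summits were present in both. Those missing were mRpS26 in replicate 2 and mRpL17 and mRpL37 in replicate 3.

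Taking the strongest 2993 entries of replicate 2 alone made 19 members occupied (14.7% of protein-coding genes), the newcomer being mRpL54, and those of replicate 3 alone made 17 (13.9%). The rank was stronger in replicate 3 for 14 of the 19 (73.7%), beside 54.0% of 1588 promoter summits found in both. Cytosolic ribosomal protein genes went the other way, with a stronger rank in replicate 3 for 5 of 40 (12.5%). The labels refer to a separate protocol document for each replicate, and the part of protocol in these ranks was not tested. As a description, the ranks of the 19 in both replicates had a Spearman correlation of 0.84, beside 0.70 over 1588 promoter summits.

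All 19 summits lay upstream of the nearest start of the member, at 52 to 378 bp with a median of 154 bp. This position was not particular to the members: 91.1% of all occupied protein-coding genes had an upstream summit, and their median distance was 155 bp. In 17 of the 19 (89.5%) the summit stood between the member and a divergent neighbour, both starts within 500 bp, and all 17 neighbours were protein-coding. With neighbours of any gene class, this held for 59.9% of all occupied protein-coding genes. It also held for 85.7% of the occupied genes of the respiratory chain and ATP synthase, close to the members, and for 57.1% of the occupied cytosolic ribosomal protein genes. At the members, the 2 starts of such a pair were 218 to 492 bp apart with a median of 392 bp. The summit was nearer the member in 6 pairs and nearer the neighbour in 11. Outside the pairs, mRpL41 and mRpL4 had the summit at their own starts. No 2 members faced each other across a summit, so the 19 genes were reached by 19 separate peaks, of which 17 summits were intergenic, 1 was in an intron and 1 in an untranslated exon.

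**Figure D2:**
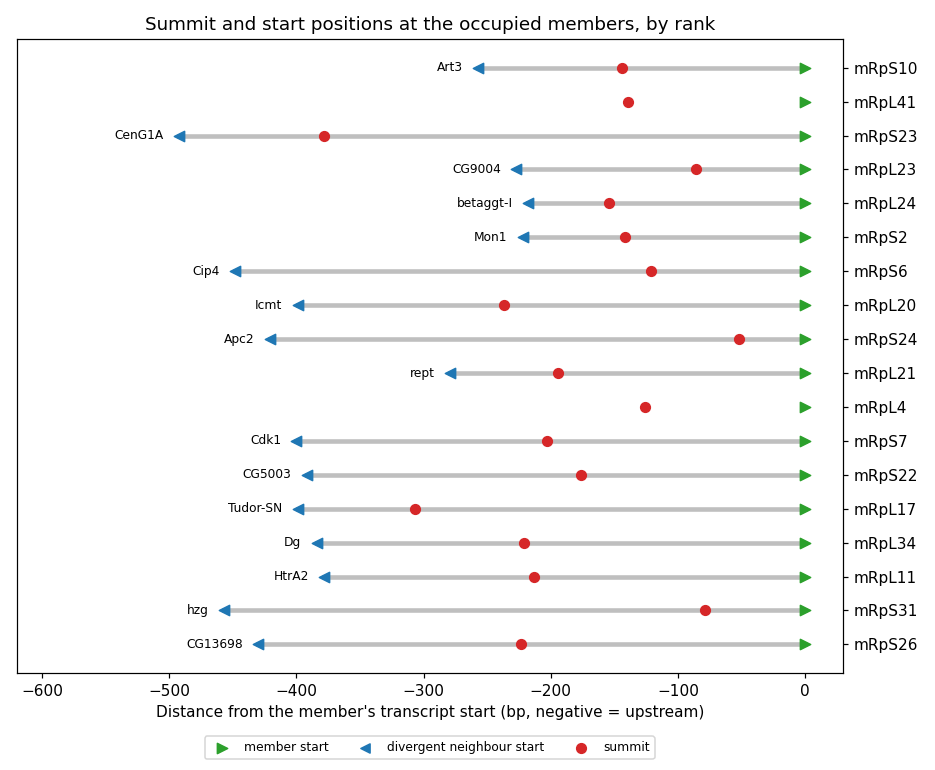
Position of each summit (circle) and of the divergent neighbour's start (left-pointing triangle, named) relative to the start of the occupied member nearest the summit (right-pointing triangle, at 0), in bp along the x axis, with members in order of combined rank from top to bottom; mRpL37 is not drawn. All summits drawn lie upstream of the member, at 52 to 378 bp, and those of all members drawn except mRpL41 and mRpL4 lie on a bar that joins 2 divergent starts.

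Because 1 summit was counted for both genes of a pair, occupancy was also assigned only to the gene with the nearest start. Under that rule 8 members (11%) were occupied, beside 10.4% of protein-coding genes. They were mRpL41, mRpL23, mRpS6, mRpS24, mRpL4, mRpS22, mRpS31 and mRpL37. Thus 8 of the 19 (42.1%) held the start nearest their summit, beside 66.9% of all occupied protein-coding genes, and with the summit given to 1 gene alone the share of members was close to the background.

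Divergent arrangement was itself common in the family. A divergent start within 1000 bp was annotated for 58 of the 73 members (79.5%) and for 39.6% of protein-coding genes. Among genes with such a neighbour 19 of 58 members (32.8%) were occupied, beside 26% of protein-coding genes. Among genes without one, 0 of 15 members were occupied, beside 7.28% of protein-coding genes. In the pooled relaxed list 9 of those 15 had an entry, beside 50.8% of all protein-coding genes, with or without a divergent start. The difference from the background was therefore smaller among genes of the same arrangement (32.8% beside 26%) than over the whole family (26.0% beside 14.7%).

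Occupancy was also counted by the distance between the divergent starts. Of the 58, 18 (31.0%) had the nearest divergent start at most 100 bp away, beside 16.3% of divergent protein-coding genes. In that class 1 of 18 members was occupied (5.56%), beside 23% of protein-coding genes. An entry in the pooled relaxed list was found for 13 of the 18, beside 50.8% of all protein-coding genes, and the share for protein-coding genes of that class is not given. The occupied one was mRpL23, which has 3 starts within 500 bp of its summit. With the starts over 200 and up to 500 bp apart, 15 of 31 members were occupied (48.4%), beside 35.3% of protein-coding genes. The median distance was 399 bp for occupied and 192 bp for unoccupied members, while over all divergent protein-coding genes the medians were close, at 288 bp and 303 bp. These differences were not tested, and the classes use the closest pair of annotated starts.

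**Figure D3:**
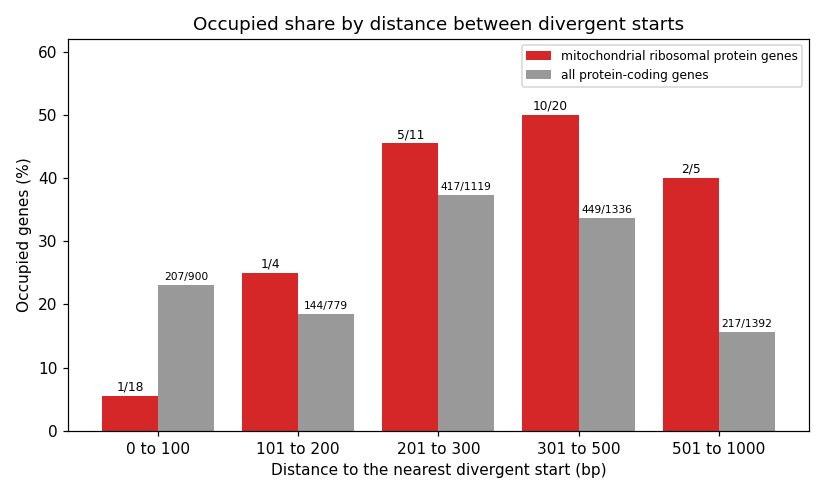
Share of genes occupied (y axis, %) by distance to the nearest divergent start (x axis, bp) for mitochondrial ribosomal protein genes and for all protein-coding genes; the numbers above the bars are occupied and total genes. Members with the starts at most 100 bp apart were occupied in 1 of 18 cases, and those over 300 and up to 500 bp in 10 of 20.

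By chromosome, 7 of 17 members on 3L were occupied, beside 16.1% of the protein-coding genes of that arm. The counts were 5 of 12 on 2L beside 15.4%, 5 of 21 on 3R beside 16.0% and 2 of 12 on 2R beside 13.1%. The X chromosome carries 11 members and 0 were occupied, beside 12.5% of protein-coding genes on X. In the pooled relaxed list 3 of the 11 (27.3%) had an entry, beside 49.8% of protein-coding genes on X, whereas 52 of the 62 members elsewhere (83.9%) had one, beside 51.0% of other protein-coding genes. No entry in any list was found for 5 of the 11 and for 6 of the 62, counts for which no background share is given. Divergent starts were annotated at 9 of the 11. The X is present once in males and the embryos were of both sexes; its part in these counts was not tested.

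The 54 unoccupied members ranged from near the limit of the combined list to no entry at all. In the pooled relaxed list 55 of the 73 (75.3%) had an entry within 500 bp, beside 50.8% of protein-coding genes, and 36 of these were unoccupied, at ranks 3103 to 29758 with a median of 11388.5. Of the 36, 12 had ranks stronger than 6000. With the occupied genes included, entries up to rank 6000 reached 42.6% of mRpL and 42.3% of mRpS genes, beside 24.4% of protein-coding genes. Entries were found in replicate 2 for 54 members, in replicate 3 for 46 and in both for 38, and 11 members had no entry in any list. Shares of all protein-coding genes are not given here for single replicates or for no entry, so these counts stand without a background. Because a relaxed list includes background, an entry there is not a call.

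The strongest unoccupied member was mRpL9, which has no divergent start within 1000 bp, at pooled rank 3103 (60.8), 3745 (35.0) in replicate 2 and 3153 (23.6) in replicate 3. It was followed by mRpL42, specific to mitochondria, at 3228 (59.2), with 4177 (32.8) and 4512 (19.3). The member mRpL54 stood at 3626 (54.6), with 2564 (43.6) in replicate 2 but 5344 (17.8) in replicate 3. These 3 fell just past the weakest member called, mRpS26, and the weakest signal in the combined list was 62.2.

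The small-subunit gene mRpS9 ranked 3901 (52.0), with 3603 (35.9) in replicate 2 and 8641 (14.6) in replicate 3. At mRpL32 the ranks were 4093 (50.3), 5937 (26.3) and 4706 (18.9). The gene mRpL38 was the strongest member on X, at 4285 (48.7), 5951 (26.3) and 3972 (20.7). By distance, the largest inside the limit was the 378 bp of mRpS23 and the smallest outside it was the 583 bp of mRpL47, upstream of whose start the peak ranked 1461 was nearer to a start of CG8176, 484 bp away.

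**Figure D4:**
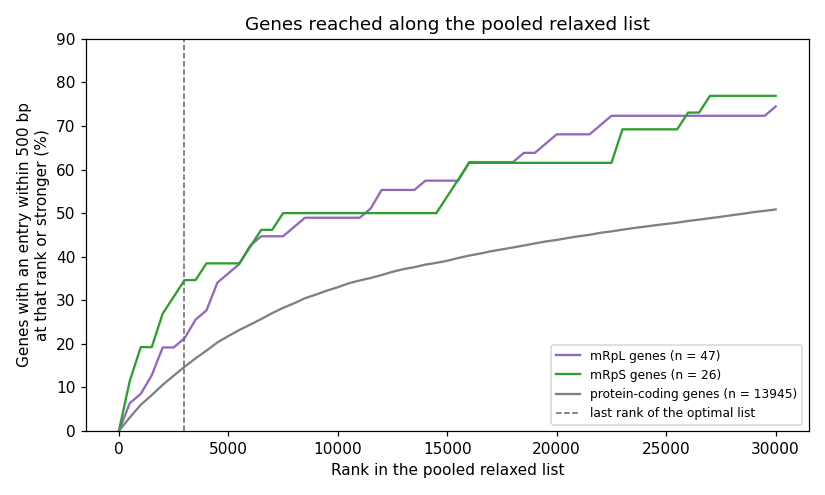
Share of genes (y axis, %) with an entry of the pooled relaxed list within 500 bp of a start at a given rank or stronger (x axis), for mRpL genes, mRpS genes and all protein-coding genes; the dashed line marks rank 2993. Both member lines stay above that of protein-coding genes, and together they end at 75.3% beside 50.8%.

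The DNA under the summits was poor in G and C. In the 100 bp around the summit the median over the 19 was 29.0% (SD 5.03, range 23.0% to 39.0%), beside 31.0% (SD 9.20) over all 1603 promoter summits, a difference smaller than the spread of either. In the flanks, 100 bp windows centred 400 bp to either side, the median over the members was 48.5% (41.5% to 64.5%), and the centre was lower than the flanks in 19 of 19. That count is not given over all promoter summits, but they dipped as well. Their mean share in 50 bp bins was 32.7% at the summit and 45.8% and 45.5% at 400 bp before and after it. For the members these means were 27.2%, 46.7% and 55.1%. Low G and C content before the start was not limited to occupied members: in the 200 bp upstream of the most upstream start the median was 30% (SD 4.91) in the 19, 34.8% (SD 7.62) in the 54 and 37.5% (SD 8.83) over protein-coding genes, with overlapping ranges of 23.5% to 39.5% in the 19 and 20.5% to 58.0% in the 54. The part of base composition in occupancy was not tested.

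**Figure D5:**
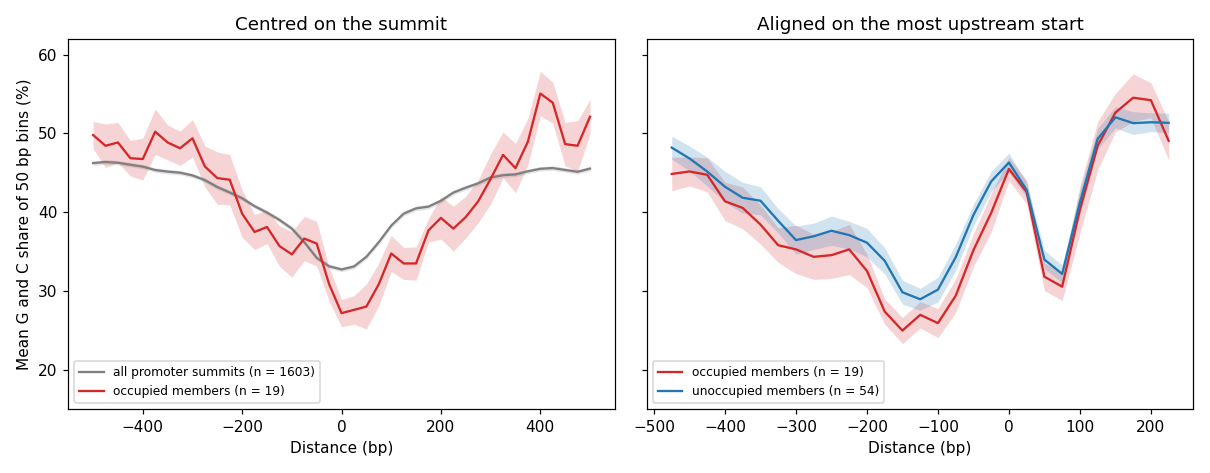
Mean G and C share of 50 bp bins (y axis, %) by distance in bp from the summit (left, 19 occupied members and 1603 promoter summits) and from the most upstream start (right, 19 occupied and 54 unoccupied members; negative is upstream); shading is the standard error over genes or summits. The share dips at the summit in the left panel, and in the right panel both groups dip upstream of the start, the occupied members lower.

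Short motifs were searched on both strands in the 300 bp of each promoter (250 bp before to 50 bp after the most upstream start). The E-box CAGCTG, a palindrome of the type read by basic helix-loop-helix proteins, was in 40 of 73 member promoters (54.8%), beside 17.7% of protein-coding promoters and 21.4% of those with a divergent neighbour. It was found both without and with occupancy, in 31 of 54 unoccupied (57.4%) and 9 of 19 occupied members (47.4%), and in 27 of 47 mRpL and 13 of 26 mRpS genes. The letters stood at the start itself: of 45 matches 39 (86.7%) lay within 100 bp before to 50 bp after the start with a median position of 2 bp after it, whereas over all 2776 matches in protein-coding promoters 65.9% did so and the median was 51 bp before it.

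In the 100 bp around the summit CAGCTG was found at 0 of 19, beside 4.12% of promoter summits and 4.95% of protein-coding promoter windows of that length. In the 9 occupied members whose promoter window holds one, the nearest match of that window was 74.5 to 322.5 bp from the summit with a median of 137.5 bp. In the 200 bp around the summit 3 of 19 held it (mRpL11, mRpL24 and mRpS24), beside 11.2% of promoter summits and 11.5% of protein-coding promoter windows of that length. The match at mRpL11 in that count lies outside its promoter window. Cytosolic ribosomal protein promoters held CAGCTG in 9 of 93 cases (9.68%), respiratory chain and ATP synthase promoters in 21 of 87 (24.1%) and mitochondrial aminoacyl-tRNA synthetase promoters in 7 of 15 (46.7%).

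The DNA replication-related element TATCGATA, which is bound by DREF, was in 15 of 73 promoters (20.5%), beside 9.36% of protein-coding promoters and 15.2% of divergent ones. Related lists had it in 28 of 93 cytosolic ribosomal protein promoters (30.1%) and 5 of 9 of mitochondrial translation factors (55.6%). It was in 3 of 14 for mitochondrial DNA transcription and replication (21.4%). Lower shares were 9 of 87 for the respiratory chain and ATP synthase (10.3%) and 1 of 15 for mitochondrial aminoacyl-tRNA synthetases (6.67%). In summit windows of 200 bp TATCGATA was in 0 of 19, beside 6.18% of promoter summits. The core promoter sequence GGTCACACT was in 0 of 19 occupied and 8 of 54 unoccupied promoters (14.8%), beside 6.05% of protein-coding promoters. The AT-rich run ATTTAAAA was in 7 of 19 (36.8%) and 13 of 54 (24.1%), beside 14.2%. For GAGAG, the core of the GAGA factor site, the counts were 3 of 19 and 9 of 54, beside 29.7%. CCGGAAG, an ETS-type site, was in 0 of either group and in 1.09% of protein-coding promoters. CGATA, which also occurs within TATCGATA, was in 8 of 19 and 35 of 54, beside 47.4%. No motif among the 14 searched was present at most of the 19 summits.

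Other genes of mitochondrial gene expression were counted by the same rule. The mitochondrial ribosomal protein genes named otherwise, tko and bonsai, were occupied in 0 of 2 cases, mitochondrial translation factor genes in 0 of 9 and mitochondrial aminoacyl-tRNA synthetase genes in 0 of 15, each set beside the same 14.7%. Counts of 0 in lists this short allow upper 95% Wilson limits of 65.8%, 29.9% and 20.4%. A pooled relaxed entry was found for 8 of the 9 translation factor genes, beside 50.8% of all protein-coding genes. A list for transcription and replication of mitochondrial DNA also held genes of proteins that bind or modify RNA. Its genes were occupied in 6 of 14 cases (42.9%, 95% Wilson interval 21.4% to 67.4%). The strongest was SLIRP2, named for an RNA-binding protein that stabilises mitochondrial transcripts in mammals, at rank 54 (49 in replicate 2, 66 in replicate 3). It was followed by PolrMT, the mitochondrial RNA polymerase, at 411 (574 and 297). Next were mtSSB, the single-stranded DNA-binding protein of mitochondrial DNA, at 841, SLIRP1 at 910 and mtTFB1, an rRNA methyltransferase, at 2067.

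Genes of the respiratory chain and ATP synthase, which hold the partners of the proteins that mitochondrial ribosomes make, were occupied in 14 of 87 cases (16.1%), close to the background, and none of the 14 was among the 100 strongest peaks. The first was ND-MWFE, a complex I subunit gene, at rank 596, and ND-ASHI, COX5A, ND-24 and ND-42 followed at 811, 1026, 1029 and 1483. Cytosolic ribosomal protein genes were occupied in 42 of 93 cases (45.2%), beside 26.0% of the mitochondrial ones, and 0 of the 93 were at the 100 strongest peaks against 4 of the 73. Because the limit of 100 was chosen after the ranks of the 4 were seen, it is no fair comparison between lists. The strongest cytosolic genes were RpL11, RpL7, RpS27, RpL34b and RpL23A at ranks 125, 194, 226, 338 and 354. Their summits lay nearest their own start in 37 of 42 (88.1%) at a median of 71 bp, beside 8 of 19 (42.1%) and 154 bp for the mitochondrial genes, and 12 of 34 cytosolic genes without a divergent neighbour were occupied, beside 0 of 15. None of these differences between lists was tested.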

How the data were processed

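Per the labels' descriptions, the samples are 2 biological replicates of anti-GFP ChIP-seq on whole embryos, with chromatin sonicated to 200 to 800 bp. Per the sample notes deposited with the files, the authors called each relaxed list against 1 control and derived the optimal list by the irreproducible discovery rate, a measure of rank agreement between replicates. The deposited signal per peak was used to rank peaks. The deposited −log10 q-value is 3.82 for every optimal peak and was not used to rank. For the aligner and the peak caller, neither name nor version is given in the sources used here. The unprocessed reads and the control were not analysed here, and lists for build dm3 were not used.

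Transcript starts of all 73 members came from Ensembl release 115. Shares, distances, overlaps of at least 1 bp and motif counts were computed with Python 3.11.15, numpy 2.4.6 and pandas 2.3.3, and figures with matplotlib 3.10.9; the pairing of summits with starts was tested on simulated positions. The members, lists and comparisons were chosen with earlier results of these data known. Named are all occupied members, the 6 strongest unoccupied ones, any with a summit 500 to 1000 bp away, neighbours that share a summit (the one at mRpL37 is not reported here), and up to 5 occupied genes of each other list. Alternatives were other distances, starts, list sizes, single replicates, overlaps and windows. Genes are not replicates of a condition, so no p-value is given, and intervals cover only the counting of genes.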

Additional observations from a re-analysis of the deposited data

How the results depend on the processing

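The count of 19 occupied members (26.0%, beside 14.7% of protein-coding genes) was 12 with a limit of 200 bp (16.4% beside 9.96%), 20 with 1000 bp (27.4% beside 16.7%), 8 with each summit given to the nearest start alone (11% beside 10.4%), 11 with the stronger part of the combined list (15.1% beside 8.18%), 9 with its strongest 1000 peaks (12.3% beside 5.99%) and 55 with the whole pooled relaxed list (75.3% beside 50.8%). The 7 lost at 200 bp were mRpL11, mRpL17, mRpL20, mRpL34, mRpS7, mRpS23 and mRpS26. Coding transcripts alone and the most upstream starts alone each gave 19, beside 14.7% and 13.1% of protein-coding genes. Leaving out 1 replicate gave 17 to 19 members, 15 to 17 shared summits and 8 nearest their own start each time. Shared summits numbered 5 with both starts within 200 bp and 20 within 1000 bp, against 17. Requiring summits within 100 bp, 19 were matched in replicate 2 and 17 in replicate 3. The median G and C share at summits was 26.0% in 50 bp and 30% in 200 bp. No paired analysis was possible because there is 1 group. Depth is unknown, the lists give no value where a member has no entry, and the closeness of 2 divergent starts means that most summits cannot be assigned to 1 gene of a pair.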
